A study of Mus musculus with 11 samples.

Results

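The genes described here are 9 components of the Hedgehog pathway (Ptch1, Gas1, Cdon, Boc, Smo, Gli1, Gli2, Gli3 and Hhip), chosen by symbol from an RPKM table of mouse skin fibroblasts. All 9 were among its 47643 gene symbols, and all 9 passed the filter for testing (2 or more libraries at 1 RPKM or higher), which 11979 genes passed. RPKM is the number of reads on a gene, divided by the length of the gene and by the mapped reads of the library, so levels of different genes can be set side by side.

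Hedgehog ligands are lipid-modified secreted proteins that bind the receptor PTCH1. Without ligand, PTCH1 holds back the membrane protein Smoothened (SMO), and GLI2 and GLI3 are largely processed to repressors at the primary cilium. With ligand, SMO enters the cilium, GLI factors become activators, and transcription of GLI1, PTCH1 and HHIP rises, which is why the level of these transcripts is widely used as a readout of pathway activity. In skin, ligand from hair follicle epithelium and nerves reaches the surrounding dermal cells, among them the dermal papilla, a cluster of fibroblasts at the base of the follicle.

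Fibroblasts had been isolated by FACS from normal back skin (NS) and from excisional wounds at 5 days after injury (5dw), as live cells with CD140a (PDGFRA) on their surface and without CD45, and per the labels without CD3, CD11b and F4/80. Mice were 9 to 12 weeks old, of mixed 50% CD-1 and 50% C57Bl/6 background, and either wild-type (WT) or K14-Act (Act), in which activin is overexpressed from the keratin 14 promoter, which drives the transgene in keratinocytes. Each library held RNA pooled from 3 mice, and there were 3 libraries each for WT NS, Act NS and WT 5dw, but 2 for Act 5dw (replicates 1 and 3, since the authors excluded replicate 2 at quality control). The tissues also differed in the RNA used for a library, 100 ng for NS and 200 ng for 5dw, so tissue and input cannot be told apart.

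The number of mapped reads per library was 18649321 to 39702138. The activin subunit gene Inhba, which is the check of the genotype labels, was at 3.40 to 6.93 RPKM in WT NS and at 36.3 to 91.1 RPKM in Act NS (log2FC of 3.30, adjusted p = 0.0128, limma). In 5dw it was at 15.8 to 24.0 RPKM in WT and 26.2 to 50.2 in Act, without overlap, but the log2 difference of 0.86 did not pass the test (adjusted p = 1). The transgene is driven in keratinocytes, and the paper relates the regulation of murine Inhba in these fibroblasts to activin autoregulation. Pdgfra was at 49.8 to 65.3 RPKM in NS and 29.6 to 37.3 in 5dw, and Col1a1 was the most abundant of the fibroblast markers in all groups, whereas Ptprc (CD45) and Adgre1 (F4/80) did not exceed 0.0498 and 0.119 RPKM. Cd3e, a T cell gene whose protein was a negative marker of the sort per the labels, was at 2.94 to 33.9 RPKM in NS and 55.5 to 104.7 in 5dw. Transcripts of keratinocytes were present in every library: the summed RPKM of 14 keratinocyte markers was 1091 to 4374 in NS, 163.6 to 1438 in WT 5dw and 364 to 425.1 in Act 5dw. Libraries WT NS 1 and Act NS 1 stood apart from the other NS libraries on the second principal component of all tested genes (scores of 22.4 and 35.7, with all others at or below 1.77). Over all genes, the median difference between 5dw and NS was −0.40 on the log2 scale in WT and −0.31 in Act, so changes are given both on the deposited RPKM and after median-ratio scaling, which sets this median close to 0.

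RefSeq promoter sequences on GRCm38.p6 were found for 7 of the 9 genes, and not for Gli1 and Boc. The 250 bases before the transcription start are shown for Ptch1 and Hhip, whose transcripts fell in WT 5dw, and for Smo, whose transcript did not pass the test there. Capitals mark CG dinucleotides. The Ptch1 window was chr13:63565736-63565985 (minus strand), the Hhip window chr8:80058009-80058258 (minus strand) and the Smo window chr6:29735247-29735496 (plus strand), and none of these windows overlapped an exon of GENCODE M21. The Ptch1 start lay inside the GENCODE gene span, so it is one of several starts of this gene.
Ptch1: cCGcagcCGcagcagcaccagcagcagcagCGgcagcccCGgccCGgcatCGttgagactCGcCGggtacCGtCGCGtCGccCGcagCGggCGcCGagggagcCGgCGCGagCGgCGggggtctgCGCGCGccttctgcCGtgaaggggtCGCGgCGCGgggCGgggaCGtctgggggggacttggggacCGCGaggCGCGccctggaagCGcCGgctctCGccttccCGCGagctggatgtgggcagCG
Hhip: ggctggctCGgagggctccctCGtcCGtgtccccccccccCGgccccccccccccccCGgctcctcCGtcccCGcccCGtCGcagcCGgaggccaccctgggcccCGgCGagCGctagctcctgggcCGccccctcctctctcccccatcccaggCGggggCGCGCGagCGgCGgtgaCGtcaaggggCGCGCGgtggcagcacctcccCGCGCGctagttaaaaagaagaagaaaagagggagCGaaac
Smo: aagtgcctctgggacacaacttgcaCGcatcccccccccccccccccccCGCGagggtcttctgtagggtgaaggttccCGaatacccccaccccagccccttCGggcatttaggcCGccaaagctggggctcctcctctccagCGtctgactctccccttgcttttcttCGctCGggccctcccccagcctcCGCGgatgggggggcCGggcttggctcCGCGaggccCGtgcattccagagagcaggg

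All 3 windows were rich in G and C. They held 41 CG dinucleotides in Ptch1, 28 in Hhip and 15 in Smo, beside a median of 6 over all 32851 promoters in the table, and 1.09% of all promoters had as many as Ptch1, 7.61% as many as Hhip and 27.3% as many as Smo. Among the other genes, Gli3 had 34, Gli2 22, Gas1 10 and Cdon 1, and the Cdon window lay at an internal start and overlapped a Cdon exon. The GLI binding motif GACCACCCA, searched on both strands, occurred in 0 of the 7 windows and in 0.225% of all promoters. Its core CCACCCA, which is part of the longer motif, occurred in 0 of 7 and in 8.11% of all. With shares this low, 0 of 7 windows does not set these genes apart from other promoters, and Gli1 and Boc were not searched. A GC box (GGGCGG, both strands) was found in 5 of the 7 windows, those of Ptch1, Gas1, Gli2, Gli3 and Hhip, and in 32.7% of all promoters, and a TATA box (TATAAA, both strands) in 0 of 7 and 12.4% of all.

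The question of the first comparison was how wounding changed the pathway in fibroblasts. In WT mice, 6 of the 9 genes fell and 1 rose from NS to 5dw (adjusted p under 0.05, limma), while of all tested genes 48.8% fell and 9.45% rose. In Act mice, 5 of the 9 fell and 0 rose, beside 36.5% and 9.04% of all genes. After median-ratio scaling, 6 of 9 fell and 1 rose in WT (22.2% and 22.4% of all genes), and 4 fell and 1 rose in Act (20.8% and 19.9%). The median log2FC of the 9 genes was −1.18 in WT, beside −0.40 over all genes, and −1.27 in Act, beside −0.31. After scaling it was −0.75 in WT and −0.93 in Act, beside −0.004 and 0.002 over all genes. In 6 of the 9 genes (Ptch1, Gli1, Gli2, Gli3, Boc and Cdon), all 5dw libraries were lower than all NS libraries, which held for 38.9% of all genes, and in 0 of the 9 were all 5dw libraries higher, which held for 8.45%. In a bulk library, fewer cells of a type and less RNA per cell cannot be told apart, which holds for every change given here.

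**Figure D1:**
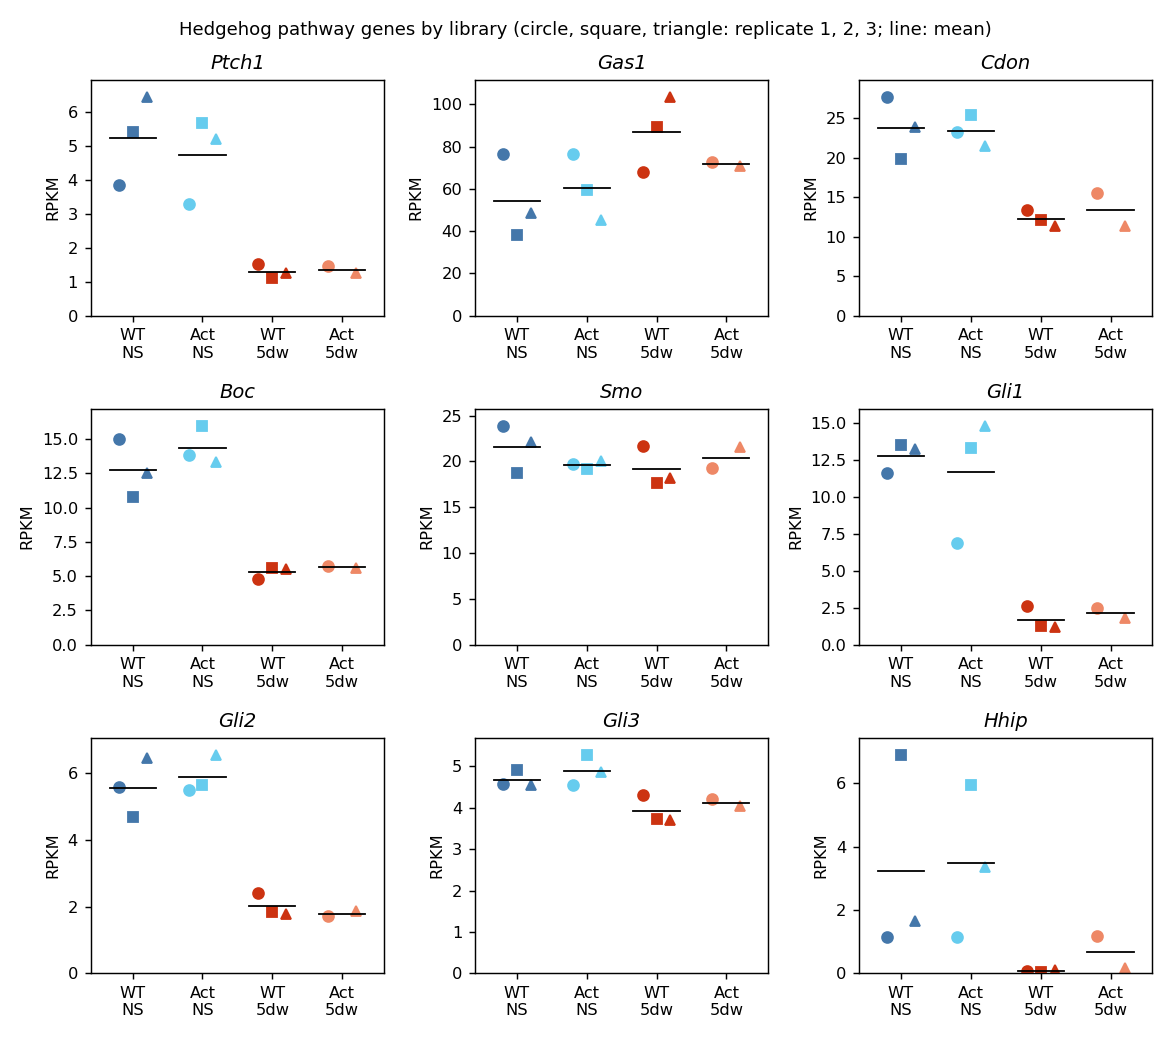
Points show the RPKM of each Hedgehog pathway gene (y axis, linear from 0, its own range in each panel) in each of the 11 libraries by group (x axis), with the marker shape giving the replicate number and the black line the group mean. Ptch1, Gli1, Gli2, Gli3, Boc and Cdon are lower in every 5dw library than in every NS library, Smo and Gas1 overlap, and Hhip overlaps through the Act 5dw library at 1.18 RPKM.

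Ptch1 (ENSMUSG00000021466.12, chr13:63508328-63573598, minus strand) encodes the main ligand receptor and is itself a target of GLI. Its level was 3.84, 5.40 and 6.43 RPKM in the WT NS libraries, 3.28, 5.68 and 5.19 in Act NS, 1.51, 1.10 and 1.24 in WT 5dw, with 1.46 and 1.24 in Act 5dw. Thus, the 5 wound libraries lay within a narrow range, and all of them were under the lowest NS library. The mean in 5dw was 24.6% of that in NS in WT and 28.6% in Act. Accordingly, the log2FC was −1.66 ± 0.21 (SE) in WT (adjusted p = 0.000116, limma) and −1.47 ± 0.24 in Act (adjusted p = 0.000735). After scaling, Ptch1 still fell, by 1.28 in WT and by 1.18 in Act on the log2 scale.

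The co-receptors Gas1, Cdon and Boc bind ligand together with PTCH1 and promote signaling, and they did not change alike. Boc (ENSMUSG00000022687.12, chr16:44485049-44558897, minus strand) was at 15.0, 10.8 and 12.5 RPKM in WT NS, at 13.8, 16.0 and 13.3 in Act NS, at 4.80, 5.60 and 5.52 in WT 5dw, with 5.76 and 5.57 in Act 5dw. Cdon (ENSMUSG00000038119.15, chr9:35421128-35507652, plus strand) was at 27.6, 19.8 and 23.9 RPKM in WT NS, at 23.2, 25.4 and 21.5 in Act NS, at 13.4, 12.1 and 11.3 in WT 5dw, with 15.5 and 11.3 in Act 5dw. Both were therefore separated by tissue in all libraries. Boc fell with a log2FC of −1.18 ± 0.14 in WT (adjusted p = 6.29e-05, limma) and −1.27 ± 0.15 in Act (adjusted p = 0.000122). Cdon fell with −0.92 ± 0.16 in WT (adjusted p = 0.000719) and −0.79 ± 0.18 in Act (adjusted p = 0.00425). After scaling, the change of Cdon was −0.47 in WT (adjusted p = 0.0298) and −0.45 in Act, where it no longer passed the test (adjusted p = 0.0612). Without Act 5dw replicate 3 the change in Act was −0.57 with an adjusted p of 0.0601.

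Gas1 (ENSMUSG00000052957.8, chr13:60174405-60177365, minus strand), a membrane-anchored co-receptor first known as a growth arrest gene, went the other way. Its level was 76.3, 37.9 and 48.7 RPKM in WT NS, 76.3, 59.4 and 45.4 in Act NS, 67.9, 89.5 and 103.4 in WT 5dw, with 72.8 and 70.7 in Act 5dw. The tissues overlapped, because both NS libraries numbered 1 were as high as wound libraries. The log2FC was 0.71 ± 0.26 in WT (adjusted p = 0.0373, limma) and 0.28 ± 0.29 in Act (adjusted p = 0.46), and 1.17 and 0.63 after scaling (adjusted p = 0.00863 and 0.147). The call in WT was lost when any 1 of WT NS replicate 2 or 3, WT 5dw replicate 2 or 3, or Act 5dw replicate 1 or 3 was left out, with a log2FC of 0.49 to 0.71 and an adjusted p of 0.0509 to 0.14. It was also lost with quantile normalization (0.82, adjusted p = 0.0585) and without the filter on low values (0.71, adjusted p = 0.0779). Within a library, where scaling plays no part, Gas1 made up 55.4% to 67.3% of the summed RPKM of the 3 co-receptors in NS and 77.4% to 86.0% in 5dw, without overlap. The sum itself was 68.5 to 119 RPKM in NS and 86.2 to 120.2 in 5dw, and thus overlapped.

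Smo (ENSMUSG00000001761.7, chr6:29735503-29761365, plus strand), the signal transducer, was among the steadiest of the 9 genes. It was at 23.9, 18.7 and 22.1 RPKM in WT NS, at 19.7, 19.2 and 20.0 in Act NS, at 21.7, 17.7 and 18.1 in WT 5dw, with 19.3 and 21.5 in Act 5dw. The ratio of its highest to its lowest library was 1.27 in NS and 1.23 in 5dw, and the tissues overlapped. The log2FC was −0.17 in WT (95% confidence interval −0.45 to 0.12, adjusted p = 0.282, limma) and 0.05 in Act (−0.26 to 0.37, adjusted p = 0.789), whereas after scaling the sign in WT turned to 0.28 (adjusted p = 0.0907) and the rise in Act of 0.40 passed the test (adjusted p = 0.0409). The ratio of Smo to Ptch1 within a library was 3.38 to 6.21 in NS and 13.2 to 17.4 in 5dw.

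The 3 GLI transcription factors differed most among themselves. Gli1 (ENSMUSG00000025407.7, chr10:127329882-127341974, minus strand), an activator and a transcriptional target of the pathway, was at 11.6, 13.5 and 13.2 RPKM in WT NS, at 6.88, 13.3 and 14.8 in Act NS, at 2.60, 1.26 and 1.17 in WT 5dw, with 2.50 and 1.77 in Act 5dw. Even the lowest NS library, Act NS 1, was above all wound libraries. Its mean in 5dw was 13.2% of that in NS in WT and 18.3% in Act, and the log2FC was −2.66 ± 0.29 in WT (adjusted p = 4.58e-05, limma) and −2.15 ± 0.32 in Act (adjusted p = 0.000494). Of all tested genes, 1.53% had a lower log2FC in WT and 3.03% in Act. After scaling, Gli1 fell by 2.26 in WT and by 1.84 in Act. In the annotation Gli1 overlaps Arhgap9 on the opposite strand, which did not exceed 0.0961 RPKM in any library.

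Gli2 (ENSMUSG00000048402.14, chr1:118834132-119053619, minus strand), the main activator downstream of SMO, was at 5.57, 4.68 and 6.45 RPKM in WT NS, at 5.51, 5.64 and 6.55 in Act NS, at 2.40, 1.84 and 1.77 in WT 5dw, with 1.71 and 1.86 in Act 5dw. The gap between the tissues was wider than the spread within them. Gli2 fell with a log2FC of −1.27 ± 0.14 in WT (adjusted p = 5.3e-05, limma) and −1.48 ± 0.16 in Act (adjusted p = 5.99e-05), or −0.88 and −1.19 after scaling.

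Gli3 (ENSMUSG00000021318.15, chr13:15463235-15730026, plus strand), which acts mainly as a repressor, was at 4.57, 4.90 and 4.55 RPKM in WT NS, at 4.54, 5.27 and 4.87 in Act NS, at 4.32, 3.73 and 3.70 in WT 5dw, with 4.20 and 4.04 in Act 5dw. The tissues did not overlap, but the gap was small. The log2FC was −0.23 in WT (95% confidence interval −0.46 to −0.0011, adjusted p = 0.0777, limma) and −0.22 in Act (−0.48 to 0.04, adjusted p = 0.144), and it turned to 0.18 and 0.10 after scaling. With array weights Gli3 passed the test as lower in Act (−0.29, adjusted p = 0.0443), so its direction depended on the processing.

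As a result, the GLI transcripts had another composition in wound fibroblasts, which can be given within each library and without scaling. Gli1 was 53.3%, 58.4% and 54.6% of the summed Gli1, Gli2 and Gli3 RPKM in WT NS, and 40.6%, 54.9% and 56.4% in Act NS. In 5dw it was 27.9%, 18.5% and 17.7% in WT and 29.7% and 23.1% in Act. Conversely, Gli3 was 18.6% to 26.8% in NS and 46.3% to 55.6% in 5dw. The share of Gli2 overlapped, at 20.3% to 32.5% in NS and 20.3% to 27.0% in 5dw. These shares are of transcripts and do not give the processed or active forms of the proteins.

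**Figure D2:**
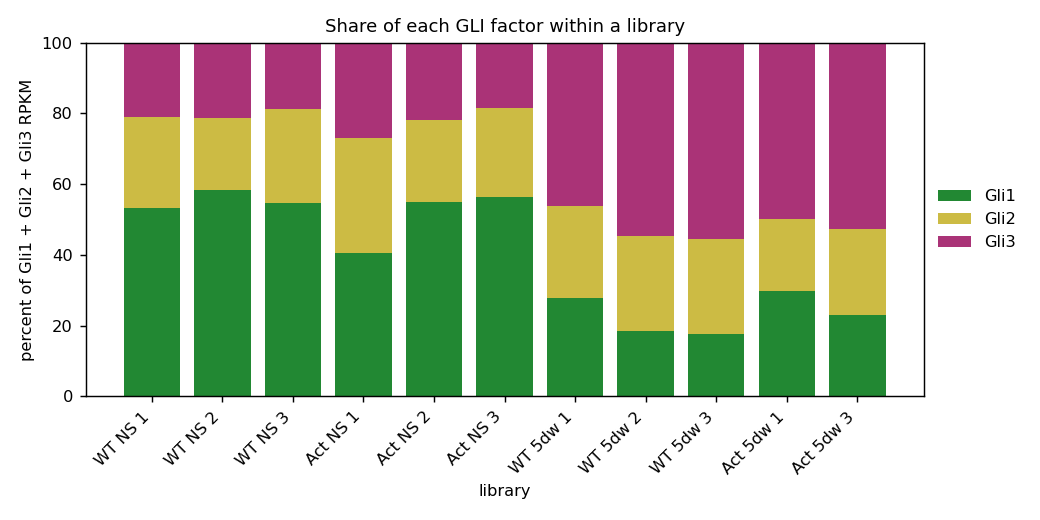
Stacked bars give the percent of the summed Gli1, Gli2 and Gli3 RPKM (y axis, 0 to 100) that each GLI gene made up in each of the 11 libraries (x axis). Gli1 is the largest share in all NS libraries, at 40.6% to 58.4%, and Gli3 in all 5dw libraries, at 46.3% to 55.6%.

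Hhip (ENSMUSG00000064325.4, chr8:79965851-80058006, minus strand), a ligand-binding inhibitor and GLI target, had the lowest mean of the 9 genes in each group and was the most variable. In WT NS 2 and Act NS 2, however, Hhip was above Ptch1, Gli2 and Gli3. It was at 1.15, 6.90 and 1.64 RPKM in WT NS, at 1.16, 5.94 and 3.36 in Act NS, at 0.0617, 0.0316 and 0.1001 in WT 5dw, with 1.18 and 0.175 in Act 5dw. The WT 5dw values rested on 12, 6 and 19 reads, and those of Act 5dw on 119 and 22. Hhip passed the filter through NS, since Act 5dw 1 was the only 5dw library at 1 RPKM or more. WT tissues did not overlap, whereas Act 5dw 1 reached the level of the NS libraries numbered 1. The log2FC was −2.40 ± 0.59 in WT (adjusted p = 0.00552, limma) and −1.70 ± 0.66 in Act (adjusted p = 0.056), and the pseudocount of 0.5 RPKM lowers the size of both, since the ratio of the mean RPKM in NS to that in 5dw was 50.1 in WT and 5.13 in Act. In Act, the value depended on which of the 2 wound libraries was kept, with a log2FC of −1.04 (adjusted p = 0.359) when replicate 3 was dropped and of −2.36 (adjusted p = 0.0498) when replicate 1 was. The change also passed the test with a pseudocount of 0.1 RPKM (−2.32, adjusted p = 0.0411), with array weights (−2.31, 0.00277), without Act NS replicate 1 (−2.23, 0.0161), and (at −1.70) when the first or second WT NS library was dropped (adjusted p = 0.0471 and 0.0227), which enter only through the shared spread. Without both NS libraries numbered 1, 6 of the 9 genes fell in Act, among them Hhip (−2.23, adjusted p = 0.0116), beside 44.1% of all genes, and 6 fell and 1 rose in WT, beside 50.3% and 9.53%.

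**Figure D3:**
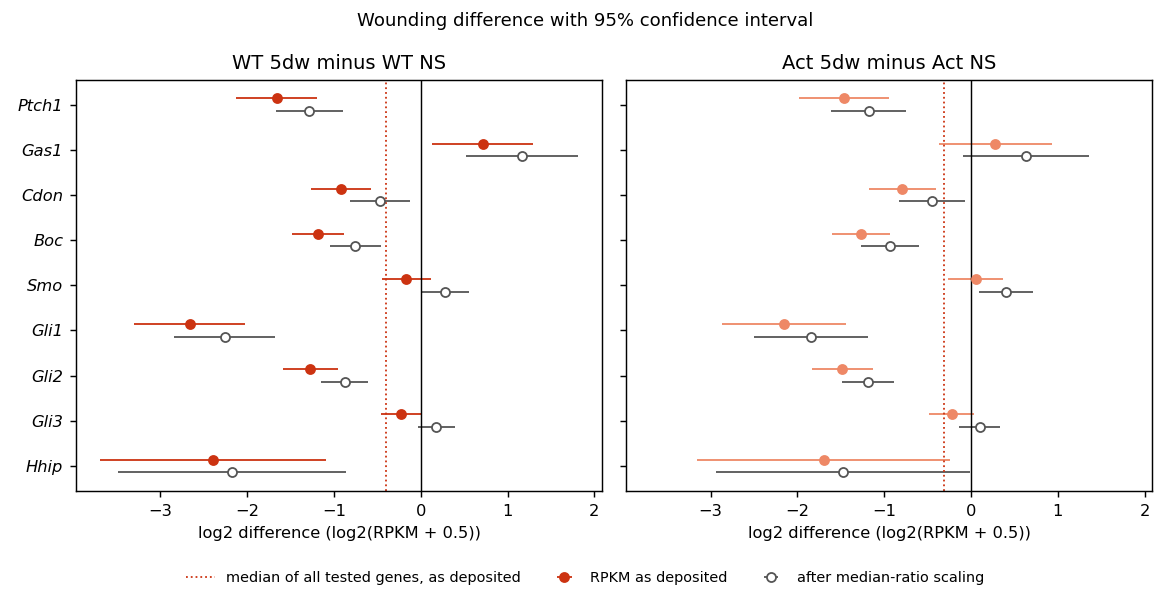
Points give the log2 difference between 5dw and NS (x axis, on log2(RPKM + 0.5)) for each gene (y axis) in WT and in Act, with bars for the 95% confidence interval. Filled points are on deposited RPKM and open points after median-ratio scaling, and the dotted line is the median of all tested genes on deposited RPKM (−0.40 in WT and −0.31 in Act). Gli1, Hhip, Ptch1, Gli2, Boc and Cdon lie to the left of this line in both genotypes, and Smo, Gli3 and Gas1 to the right.

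Of 12 dermal papilla markers, 9 were tested, and 7 fell and 1 rose in WT, and 7 fell and 0 rose in Act, beside the 48.8% and 36.5% of all genes that fell. Of all genes, 9.45% rose in WT and 9.04% in Act. After scaling 7 fell and 1 rose in WT and 6 fell and 1 rose in Act, beside 22.2% and 20.8% of all genes that fell and 22.4% and 19.9% that rose. Wif1, a WNT inhibitor of the dermal papilla, was at 8.89 to 28.2 RPKM in NS and 0.414 to 5.88 in 5dw, and Corin, a protease that marks the dermal papilla, at 0.580 to 13.5 in NS and 0.0191 to 1.80 in 5dw. Alpl and Sox18 fell as well, with a log2FC of −3.19 and −2.95 in WT (adjusted p = 0.000553 and 0.000539, limma). Sox18 did not exceed 0.481 RPKM in 5dw and passed the filter only through NS, which favoured its fall in advance. The exception was Crabp1, the most abundant marker of the list, which rose in WT with a log2FC of 1.46 (adjusted p = 0.00123), and through it the summed level of the list overlapped, at 56.7 to 115.7 RPKM in NS and 61.0 to 124.6 in 5dw. The library with the highest Hhip of 5dw, Act 5dw 1, was also the highest of the 5dw libraries in Wif1 (5.88 RPKM) and Corin (1.80 RPKM). Similarly, the highest Hhip of NS, in WT NS 2 and Act NS 2, stood beside the highest Corin (13.5 and 10.9 RPKM) and Wif1 (28.2 and 26.4 RPKM) of the genotype. Other markers of the list did not follow Hhip in NS, since Alpl was highest in WT NS 3 (12.3 RPKM) and Act NS 3 (10.7 RPKM), as were Sox18 (7.89 and 6.13 RPKM) and Crabp1 (39.5 and 51.4 RPKM), where Hhip was at 1.64 and 3.36 RPKM. The part of dermal papilla cells in the change of the Hedgehog genes was not tested.

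The counts of markers that follow stand beside 48.8% of all genes that fell and 9.45% that rose in WT and 36.5% and 9.04% in Act. After scaling these shares were 22.2% and 22.4% in WT and 20.8% and 19.9% in Act. Hair follicle epithelium markers summed to 118.2 to 505.7 RPKM in NS and 11.8 to 75.7 in 5dw, and of the 5 tested, 3 (Krt15, Krt17 and Krt79) fell in each genotype and 0 rose, and after scaling 2 fell in each. Krt17, the most abundant of them, which did not pass the test after scaling, was at 56.1 to 264.6 RPKM in NS and 8.14 to 69.9 in 5dw. Krt15 did not exceed 0.910 RPKM in 5dw and passed the filter only through NS. Of the 14 keratinocyte markers, 11 fell in each genotype and 1 rose in WT (Krt6a, a keratin of wound epidermis), and after scaling 10 fell in each genotype. The most abundant in NS, Krt10, was at 296.5 to 1685 RPKM in NS and 9.29 to 31.9 in 5dw. Krt14, a basal keratin, was above Krt10 in all 5dw libraries, at 57.8 to 528 RPKM beside 192.4 to 493 in NS, and did not pass the test in either genotype (log2FC of −0.63 in WT and −1.17 in Act, adjusted p = 0.408 and 0.198). The library WT 5dw 3 had a keratinocyte sum of 1438 RPKM, within the range of NS, of which Krt14 was 528 RPKM, and Gli1 at 1.17 and Ptch1 at 1.24 RPKM. By comparison, WT NS 1 had a sum of 1091 RPKM of which Krt14 was 192.4 RPKM, and Gli1 at 11.6 and Ptch1 at 3.84. The part of keratinocyte RNA in the changes was not tested. Schwann cell markers summed to 117.9 to 162.5 RPKM in NS and 48.1 to 55.7 in 5dw, mostly through Pmp22, which fibroblasts also express, and of the 5 tested, 4 fell in each genotype and 1 rose, on deposited RPKM as well as after scaling. Immune markers summed to 4.76 to 36.7 RPKM in NS and 59.4 to 107.9 in 5dw, with Cd3e as the largest part in each group. Of the 3 immune markers tested, 1 rose and 1 fell in each genotype, and after scaling 2 rose in WT and 1 in Act and 0 fell. In WT, Cd3e rose (log2FC of 3.37) and Cd79a fell (−0.51) on deposited RPKM. Sums of endothelial markers (22.5 to 39.7 RPKM in NS and 21.9 to 28.8 in 5dw), of pericyte and smooth muscle markers (16.4 to 25.9 and 12.8 to 20.6) and of adipocyte markers (5.36 to 8.31 and 5.07 to 12.7) overlapped between the tissues. Of 8 skeletal muscle markers Tnnt3 was tested, which fell on deposited RPKM in both genotypes (2.31 to 5.01 RPKM in NS and 1.15 to 1.96 in 5dw) and did not pass the test after scaling. The most abundant genes of the endothelial, pericyte and adipocyte lists were Tek (13.9 to 29.4 RPKM in NS and 4.74 to 10.2 in 5dw), Abcc9 (2.50 to 4.85 and 5.53 to 11.1) and Fabp4 (4.29 to 7.12 and 3.75 to 12.1). Of 4 endothelial markers tested, 1 rose and 1 fell in WT, and 2 rose and 1 fell in Act. After scaling 2 rose and 1 fell in WT, and 2 rose and 0 fell in Act. Of 7 pericyte and smooth muscle markers tested, 1 rose and 3 fell in WT, and 2 rose and 2 fell in Act. After scaling 2 rose and 1 fell in each genotype. Of 2 adipocyte markers tested, 0 were called. In WT, Pecam1 rose (log2FC of 1.40) and Tek fell (−1.94), while Abcc9 rose (0.63) and Cspg4 fell (−2.09).

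Of the ligands, Shh did not exceed 0.0875 RPKM, Ihh 0.0650 and Dhh 0.352 in any library, and 0 of the 3 passed the filter. Genes that process and release ligand in the cells that make it were partly expressed. Of 6 listed, 4 were tested, and 3 fell and 1 rose in each genotype, beside 48.8% of all genes that fell and 9.45% that rose in WT and 36.5% and 9.04% in Act. After scaling 3 fell and 1 rose in WT, but 2 fell and 1 rose in Act, where Disp1 did not pass the test (−0.45, adjusted p = 0.07). Disp1, which releases lipid-modified ligand, was at 5.30 to 8.41 RPKM in NS and 2.43 to 3.64 in 5dw, with a log2FC of −1.04 in WT (adjusted p = 0.0005, limma). Scube3, a secreted carrier of ligand, was at 1.70 to 8.77 RPKM in NS and 0.0536 to 1.11 in 5dw, with a log2FC of −2.64 in WT (adjusted p = 0.00242), and Scube1 at 0.807 to 4.01 and 0.183 to 0.560, with −1.49 (adjusted p = 0.0193). Both had their lowest NS level in WT NS 1, and Scube3 had its highest 5dw level in Act 5dw 1, as Hhip did. Hhat, the acyltransferase of Hedgehog ligands, rose from 0.538 to 0.689 RPKM in NS to 1.02 to 1.27 in 5dw, with a log2FC of 0.50 in WT and 0.59 in Act (adjusted p = 0.0083 and 0.00817). Hhat was below 1 RPKM in all NS libraries and Scube1 in all 5dw libraries. Each thus passed the filter only through the tissue where it was high, which favoured its direction in advance.

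Other membrane regulators fell in 7 of 9 tested genes in WT and in 5 of 9 in Act, and 0 rose in either, while 48.8% and 36.5% of all tested genes fell and 9.45% and 9.04% rose. Their median log2FC was −0.55 in WT and −0.43 in Act, beside −0.40 and −0.31 over all genes. After scaling, Gpc3 and Evc fell in both genotypes, so that 2 of 9 stood beside 22.2% and 20.8% of all genes, and Gpc6 rose in Act. Of all genes, 22.4% rose in WT and 19.9% in Act after scaling. Gpc3, a glypican that competes with PTCH1 for ligand, was at 217.6 to 355 RPKM in NS and 83.5 to 130.4 in 5dw, with a log2FC of −1.52 in WT (adjusted p = 0.000255, limma). Evc and Evc2, partners of SMO at the base of the cilium, fell in WT with −0.998 and −0.578 (adjusted p = 0.000118 and 0.00506), and Gpr161, a ciliary receptor that restrains the pathway, with −0.58 (adjusted p = 0.00245).

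Of 17 tested cytoplasmic transducers and GLI regulators, which act between SMO and the target genes, 13 fell in WT and 9 in Act and 0 rose (48.8% and 36.5% of all genes fell, and 9.45% and 9.04% rose), with a median log2FC of −0.50 in WT beside −0.40 over all genes. After scaling, however, 3 fell and 2 rose in WT and 2 fell and 2 rose in Act, beside 22.2% and 22.4% of all genes in WT and 20.8% and 19.9% in Act. Those that rose after scaling were Prkaca and Prkacb in both genotypes, catalytic subunits of the kinase that starts GLI processing. Arrb1, an arrestin that takes part in SMO transport, had the smallest p of the list and fell in both genotypes on either scale, with a log2FC of −1.64 on deposited RPKM in WT (adjusted p = 7.35e-05, limma). Btrc, which marks GLI proteins for processing, Dyrk2, a kinase that acts on GLI2, and Tulp3, which carries receptors into the cilium, fell in WT with −0.76, −0.73 and −0.67 (adjusted p = 0.00023, 0.000832 and 0.000939), and of these Tulp3 did not pass the test after scaling (−0.26, adjusted p = 0.0592). Sufu, which holds GLI in the cytoplasm, was not separable from NS by the test (−0.30 in WT, adjusted p = 0.112).

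Of 29 tested genes of the primary cilium, 19 fell and 2 rose in WT (Ift20 and B9d1) and 11 fell and 2 rose in Act (Ift20 and Ift74), beside 48.8% and 36.5% of all genes that fell and 9.45% and 9.04% that rose. After scaling 6 fell and 5 rose in WT and 7 fell and 2 rose in Act, beside 22.2% and 22.4% of all genes in WT and 20.8% and 19.9% in Act. The median log2FC was −0.49 in WT, near the −0.40 of all genes. The smallest p values were those of Ift27 (−0.84), Rpgrip1l (−0.86), Arl13b (−1.06) and Bbs4 (−0.99), which take part in ciliary transport and at its transition zone, with adjusted p of 0.000211, 0.000472, 0.000547 and 0.000578 in WT. Arl13b was at 11.8 to 19.1 RPKM in NS and 6.50 to 8.36 in 5dw. Rpgrip1l and Bbs4 did not reach 1 RPKM in any 5dw library and passed the filter only through NS.

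Other genes described as GLI targets went both ways. Of 15 tested, 7 fell and 2 rose in WT, and 8 fell and 1 rose in Act. After scaling 6 fell and 4 rose in WT and 6 fell and 3 rose in Act. Of all tested genes, 48.8% fell in WT and 36.5% in Act, and 22.2% and 20.8% after scaling, so the count in WT on deposited RPKM was near the background. The shares that rose were 9.45% in WT and 9.04% in Act, and 22.4% and 19.9% after scaling. The counts that rose were therefore near the background as well. Bmp4, a growth factor of the dermal papilla and other dermal cells, was at 9.84 to 17.2 RPKM in NS and 0.215 to 0.569 in 5dw, with a log2FC of −4.08 in WT (adjusted p = 5.32e-07, limma) and −3.83 in Act (adjusted p = 2.14e-06). Bcl2, a survival gene, fell with −2.24 in WT, Ccnd1, a cyclin, with −2.12 and Bmp2 with −2.05 (adjusted p = 1.2e-06, 6.9e-05 and 4.61e-05). By contrast, the cell cycle factor Foxm1 rose with 1.04 in WT and 0.70 in Act (adjusted p = 0.000432 and 0.00997), and Sox9 with 0.60 in WT (adjusted p = 0.0209). Bmp4 and Bcl2 did not reach 1 RPKM in any 5dw library and passed the filter only through NS. The genes of this list have many other regulators in fibroblasts.

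**Figure D4:**
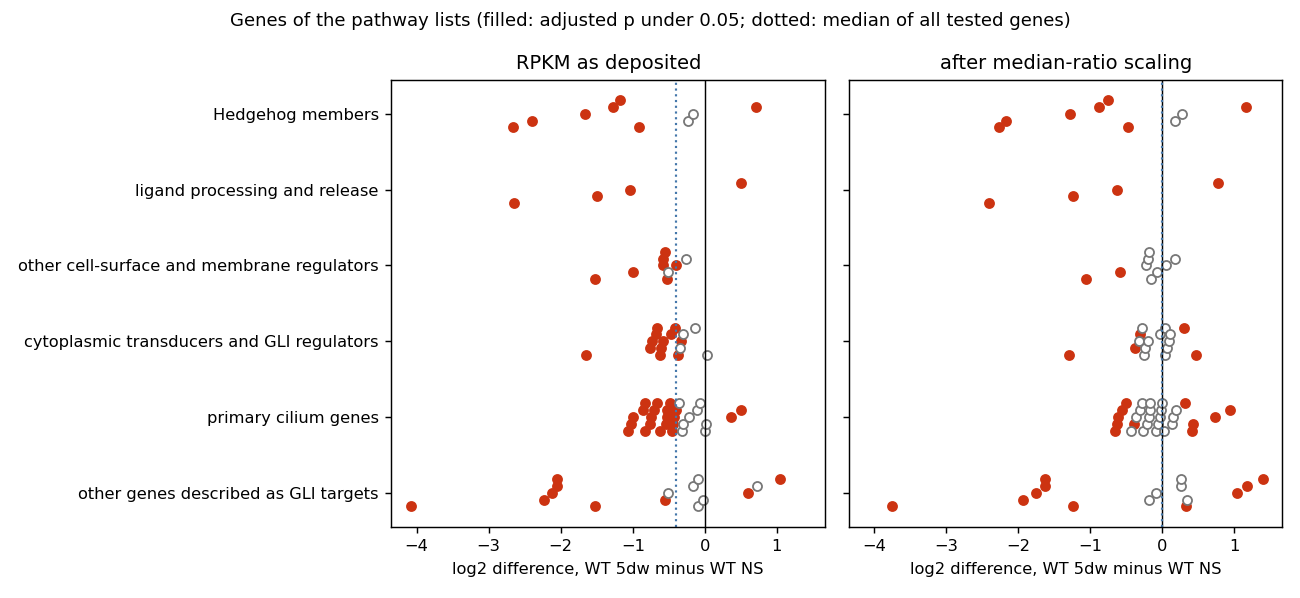
Each point is 1 tested gene of a pathway list (y axis), placed by its log2 difference between WT 5dw and WT NS (x axis), on deposited RPKM at the left and after median-ratio scaling at the right, with filled points for an adjusted p under 0.05 and a dotted line at the median of all tested genes. On deposited RPKM, points reach to the left of that line down to −4.08 for Bmp4 among other GLI targets, −2.66 for Gli1 among the Hedgehog pathway genes, −2.64 for Scube3 among ligand release genes, −1.64 for Arrb1 among cytoplasmic genes and −1.06 for Arl13b among cilium genes.

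In NS, the order of the mean levels in WT was Gas1 (54.3 ± 19.8 RPKM, SD, n = 3), Cdon (23.8 ± 3.9), Smo (21.6 ± 2.6), Boc (12.8 ± 2.1), Gli1 (12.8 ± 1.0), Gli2 (5.57 ± 0.89), Ptch1 (5.22 ± 1.30), Gli3 (4.68 ± 0.20) and Hhip (3.23 ± 3.19). Neighbours in this order overlapped over the libraries except Gas1 and Cdon, Smo and Boc, and Gli1 and Gli2. In WT 5dw it was Gas1 (86.9 ± 17.9), Smo (19.2 ± 2.2), Cdon (12.3 ± 1.0), Boc (5.31 ± 0.44), Gli3 (3.91 ± 0.35), Gli2 (2.01 ± 0.34), Gli1 (1.68 ± 0.80), Ptch1 (1.28 ± 0.21) and Hhip (0.0645 ± 0.0343), with overlap of neighbours only between Gli2 and Gli1 and between Gli1 and Ptch1. Gli1 thus moved from above to below Gli3, and Smo from below to above Cdon. In Act 5dw (n = 2) Gli1 (2.13 ± 0.52) stood before Gli2 (1.78 ± 0.11), and the other places were as in WT 5dw.

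The second question was whether the activin transgene altered these genes. Between Act NS and WT NS, 0 of the 9 genes differed (0.0167% of all genes did, limma), and 0 of 9 differed between Act 5dw and WT 5dw (0.0334% of all). Gli1 had a log2 difference of −0.19 in NS (95% confidence interval −0.83 to 0.45) and of 0.32 in 5dw (−0.40 to 1.03). Ptch1 had −0.14 in NS (−0.60 to 0.33) and 0.06 in 5dw (−0.46 to 0.58). The intervals were widest for Hhip, at 0.22 in NS (−1.08 to 1.52) and 0.92 in 5dw (−0.54 to 2.38), where its 2 Act libraries were at 1.18 and 0.175 RPKM and the 3 WT libraries at 0.1001 or less. Leaving out the first of these Act libraries moved the Hhip difference to 0.26, leaving out the other moved it to 1.58, and it ranged up to 2.85 over the alternatives, with an adjusted p of 0.692 or more. In NS the lowest adjusted p of the 9 genes was 0.736 (Boc), and in 5dw it was 1 for all of them. On deposited RPKM, an unadjusted p under 0.05 was found for 0 of the 9 genes in either comparison, and after median-ratio scaling for Boc in NS (0.31, 95% confidence interval 0.0101 to 0.60, unadjusted p = 0.0439, adjusted p = 0.991), while limma-voom on the recovered reads also called 0.

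Wounding differences were likewise not separable by genotype. The interaction, the wounding difference in Act minus that in WT, passed the test in 0 of 9 genes and in 0% of all genes, of which 400 had an unadjusted p under 0.05, with 0 of the 9 genes among them. It was 0.51 for Gli1 (95% confidence interval −0.45 to 1.47), 0.20 for Ptch1 (−0.50 to 0.89), 0.70 for Hhip (−1.25 to 2.65) and −0.43 for Gas1 (−1.31 to 0.44), and the adjusted p was 0.999 for all 9. Under the alternatives that were run, limma-voom among them, 0 of the 9 genes were called in a genotype comparison or in the interaction. Therefore, Gas1 and Hhip passed the test in WT and not in Act without a shown difference between the genotypes.

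**Figure D5:**
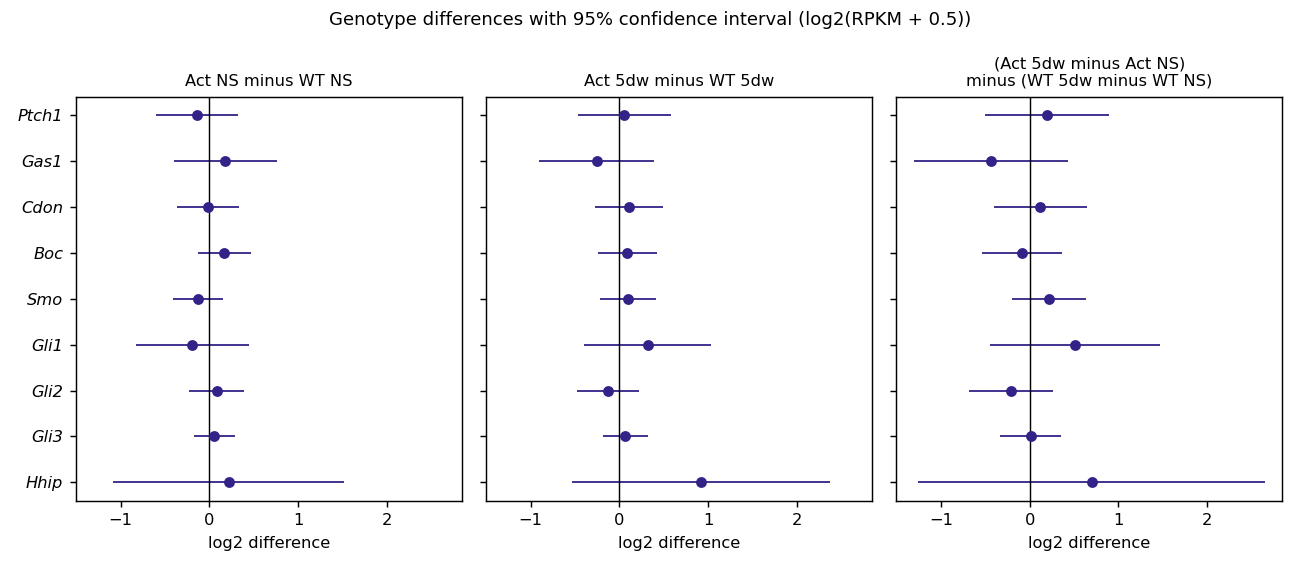
Points give the log2 difference (x axis, on log2(RPKM + 0.5)) between Act and WT in NS, in 5dw, and of the wounding difference in Act minus that in WT, for each gene (y axis), with bars for the 95% confidence interval. All intervals include 0, and Hhip has the widest in each panel.

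Among themselves, Ptch1 and Gli1 varied together over the 11 libraries, with a Pearson r of 0.981 on log2 values, and of 0.775 after subtracting the group means. Hhip had an r of 0.869 with either gene, and of 0.619 with Ptch1 and 0.543 with Gli1 after subtraction. Gli3 had a higher r than Hhip with both, at 0.887 with Ptch1 and 0.921 with Gli1, and 0.641 and 0.846 after subtraction. Its r with Gli1 after subtraction was thus above that of Ptch1 with Gli1. Gas1 ran opposite to Gli1 (r = −0.771, and −0.710 after subtraction), and Boc and Cdon varied with each other (0.956 and 0.595). Libraries of a tissue share its dissection and RNA input, and 2557 genes had an r of at least 0.9 with Gli1 and 2688 with Ptch1, so these are descriptions only. The genes most like Gli1 were Stox2 (r = 0.995), Btbd7 (0.988), Zfp84 (0.988), Bptf (0.987) and Son (0.987), and those most like Ptch1 were Scyl2 (0.992), BC024978 (0.991), Snx27 (0.991), Ccl27a (0.991) and Synj1 (0.991).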

How the data were processed

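Reads had been mapped to GRCm38 and counted per gene in CLC Genomics Workbench 12, and the authors deposited the result as RPKM. Their DEGs came from edgeR, which takes counts and was not run here. No source used here states whether counting used strand.

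Genes with 1 RPKM or more in 2 or more libraries were fitted as log2(RPKM + 0.5) with limma-trend (limma 3.58.1, R 4.3.3), with a mean for each group over all 11 libraries. A gene can pass this filter only through the tissue where it is high, which favours its direction in advance. Among others this holds for Sox18, Krt15, Scube1, Bmp4, Bcl2, Rpgrip1l and Bbs4, below 1 RPKM in 5dw, and for Hhat in NS. Hhip, Alpl and Scube3 reached 1 RPKM in 5dw only in Act 5dw 1, Arrb1 only in Act 5dw 3 and Ccnd1 only in WT 5dw 3. Counts of genes that fell or rose include such genes. Benjamini-Hochberg adjustment ran over all 11979 genes, and an adjusted p under 0.05 made a DEG. The log2 scale with this pseudocount understates changes of low genes. Replicates are pools of mice, so p-values measure the spread between pools. Whole reads were recovered from RPKM, gene length and mapped total for 11978 of the tested genes (within 0.03) and were refitted with limma-voom. Lengths were those of GENCODE M21 for 7375 genes and were searched for the others. Replicate libraries differed by more than counting noise (chi-square per degree of freedom of at least 37.4). The fit was also run on simulated data, whose outcome is not given here.

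Same-numbered libraries deviated together in WT NS and Act NS (r = 0.554, 0.423 and 0.334), in WT NS and WT 5dw (0.188, 0.12 and 0.109) and in Act NS and WT 5dw (0.222, 0.195 and 0.263). Libraries with unlike numbers had an r of at most 0.187, 0.08 and 0.0198 in these comparisons. Deviations from a group mean cancel out within the group, so these r values are not independent. The labels do not pair the samples, and this check cannot settle whether the numbers do. Act 5dw has 2 numbers, too few for this check.

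The members, lists and tests were chosen with earlier results of these data known. Genes were named by a rule: the 9 members, the ligands, 1 further gene that is not reported here, up to 4 genes of each pathway list with the smallest p in WT 5dw against WT NS, list genes called in a genotype comparison (0), the most abundant gene of each marker list, sort markers, Inhba, and the 5 genes most like Gli1 and Ptch1. Wif1, Corin, Alpl, Sox18, Foxm1, Sox9, Sufu, Arhgap9, Krt14 and the genes that stand beside a small count were named after their values were seen. Mosmo and Itgam were not analysed here. Promoters came from RefSeq on GRCm38.p6.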

Additional observations from a re-analysis of the deposited data

How the results depend on the processing

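Each result was refitted under 24 alternatives (23 for the interaction, and for Gli3 because a filter of 5 RPKM removed it). The 2 limma-voom fits on recovered reads were chosen after seeing the data. The number of members called ranged from 6 to 7 in WT 5dw against WT NS and from 4 to 7 in Act 5dw against Act NS, and was 0 in the genotype comparisons and the interaction under each alternative run. Over all genes the number called ranged from 3771 to 8082 in WT wounding and from 3104 to 6699 in Act wounding. Ptch1, Gli1, Gli2, Boc, Cdon and Hhip were called under all 24 in WT, and Ptch1, Gli1, Gli2 and Boc in Act. With the replicate block no member's call changed in either genotype, and Smo in Act was at −0.0028.

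Median-ratio scaling, quantile normalization and limma-voom with median-ratio scaling, in this order, turned Gli3 to 0.18, 0.22 and 0.20 in WT and to 0.10, 0.15 and 0.11 in Act, and Smo in WT to 0.28, 0.0924 and 0.29. Leaving out 1 library at a time gave −0.0262 to 0.13 for Smo in Act wounding. For Act NS against WT NS it gave −0.39 to 0.13 for Gli1, −0.33 to 0.0778 for Ptch1 and −0.23 to 0.88 for Hhip. It gave −0.0284 to 0.15 for Ptch1 in Act 5dw against WT 5dw and −0.0207 to 0.38 for Ptch1 in the interaction. Gli1 in Act NS against WT NS was 0.0102 with array weights and 0.0682 without both NS libraries numbered 1, and the interaction of Hhip was −0.0986 with array weights. The cause was not tested for these small differences.

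Over all genes, the filter of 5 RPKM, which tests fewer genes, lowered the count called from 6978 to 3771 in WT and from 5459 to 3104 in Act, and leaving out Act 5dw replicate 3 lowered the latter to 3509. Counts ranged from 0 to 11 for Act NS against WT NS, from 0 to 18 for Act 5dw against WT 5dw and from 0 to 10 for the interaction. With 2 Act 5dw pools, and 6 to 19 reads of Hhip in the WT 5dw libraries, genotype differences in wounds have wide intervals. Levels describe transcripts of sorted cells, not GLI protein.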
